A study of Mus musculus with 412 samples.

Results

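Two-pore potassium channels carry the background potassium current that holds a neuron near its resting potential, so they set how much input is needed before the neuron fires. A channel is a dimer, and each subunit contributes 2 pore loops. Members of the family are opened or closed by stretch, heat, lipids, acid, volatile anaesthetics or calcium signalling, and in dorsal root ganglion (DRG) neurons they are known as brakes on excitability. The genes described here are the 10 named Kcnk1, Kcnk2, Kcnk3, Kcnk4, Kcnk9, Kcnk10, Kcnk12, Kcnk13, Kcnk16 and Kcnk18, each found as 1 entry among the 45513 genes of the deposited table through its Ensembl identifier. They were listed by name as members of the family, with earlier results of these data known.

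The study asked which kinds of sensory neuron innervate the mouse colon. Neurons were traced by injecting the dye Fast Blue into the colon wall of healthy C57BL/6J mice, dissociated from thoracolumbar (TL, T10-L1) or lumbosacral (LS, L5-S2) DRG, picked by hand and sequenced 1 by 1 with a Smart-seq2 protocol that primes on polyadenylated RNA. The table held 325 neurons, 167 from TL and 158 from LS, on 6 library plates, of which plate 1 held 5 TL neurons and no LS neuron. Before its clustering the paper removed some of these neurons for contaminating satellite glia. They were kept here. No neuron was tied to a mouse in the labels, so each segment was 1 sample and no test was made between segments or classes. Ranges over neurons and values by library plate are given as descriptions. Neither neurons nor plates are replicates, and the labels tie no plate to a mouse.

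Levels are in TPM, which are reads divided by gene length and scaled to a sum of 1000000 per neuron. Levels of different genes can be set side by side only as far as the lengths behind the values hold. Those lengths were 1715 bases for Kcnk4 and 2533 for Kcnk10, against exonic lengths of 4465 and 8774 bases in GENCODE M21, and the longer ones would lower both levels and the rank of Kcnk4. A gene was counted in a neuron at 10 TPM or more, a level that stood for a median of between 10.7 reads for Kcnk16 and 60.2 reads for Kcnk2. Neurons were also split by 2 genes. Gfra3 encodes a receptor for the ligand artemin and is found in peptidergic nociceptors, and Piezo2 encodes a mechanically gated channel. The Gfra3 class held neurons with Gfra3 but not Piezo2 at 10 TPM or more (82 TL and 76 LS neurons), and the Piezo2 class held the reverse (55 TL and 65 LS neurons). The other neurons had both genes (18 TL and 7 LS) or neither (12 TL and 10 LS). Near the threshold, between 5 and 20 TPM, lay 6 neurons for Gfra3 and 27 for Piezo2, so Piezo2 membership was the less certain.

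All 10 sensory neuron markers that were checked, among them Tubb3, Prph, Avil and Scn10a, had a median of at least 10 TPM in both segments. Recovered reads ranged from 416007 to 12058968 per neuron, and their median was 2709639 for TL against 3202777 for LS neurons. Transcripts of satellite glia and Schwann cells were present too. Their 10 markers summed to 50.7 to 99364 TPM (median 2594) in TL neurons and to 6.67 to 60693 TPM (median 1508) in LS neurons, and Cdh19, Sox10, Kcnj10 and Gja1 had a median of 0 in LS. Markers of macrophages were sparse, with 7 of 8 at a median of 0 in both segments, and all 5 endothelial markers had a median of 0. A TL neuron of the Piezo2 class stood apart with an endothelial sum of 21458 TPM, against 360 TPM in the next neuron, and without it the number of channel genes called below was the same in all 5 comparisons. Of 5 fibroblast markers, 3 in TL and 4 in LS were at a median of 0, with summed levels of at most 1822 and 1866 TPM. No pair of neurons held identical values.

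Family members differed widely in abundance. Over all neurons Kcnk3 had the highest mean level (70.3 TPM), followed by Kcnk4 (47.8), Kcnk2 (45.3), Kcnk1 (26.2), Kcnk10 (14.6), Kcnk12 (9.29), Kcnk13 (5.20), Kcnk18 (5.10), Kcnk16 (0.749) and Kcnk9 (0.00832). The order of the first 3 changed with segment, from Kcnk4 (49.5), Kcnk3 (48.9) and Kcnk2 (39.5) in TL to Kcnk3 (93.0), Kcnk2 (51.4) and Kcnk4 (46.1) in LS. Ordered by the share of neurons at 10 TPM or more, Kcnk4 came first with 270 of 325 neurons (83.1%, exact Clopper-Pearson 95% interval 78.5 to 87.0) and Kcnk3 second with 215 (66.2%, 60.7 to 71.3). Intervals here cover counting error only and not the spread between mice. Kcnk13 and Kcnk18 were neighbours whose means differed little, each in few neurons at levels up to 79.4 and 123 TPM. The other 4 genes of the family in the table, Kcnk5, Kcnk6, Kcnk7 and Kcnk15, reached 10 TPM in 22, 0, 5 and 1 neurons.

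Most neurons held several of these channels. TL neurons had a median of 3 of the 10 genes at 10 TPM or more and LS neurons a median of 4. At least 4 were found in 79 of 167 TL neurons (47.3%, 39.5 to 55.2) and in 111 of 158 LS neurons (70.3%, 62.5 to 77.3), and no neuron had more than 7. None of the genes reached 10 TPM in 8 TL and 2 LS neurons. Among all genes, the median number detected per neuron was 13497 in TL and 13975.5 in LS, and 13654 and 14383 in the Piezo2 class. How far detection in general entered the difference in channel genes per neuron was not tested. The difference between segments was seen in the Piezo2 class, where at least 4 genes were found in 16 of 55 TL neurons (29.1%, 17.6 to 42.9) and 49 of 65 LS neurons (75.4%, 63.1 to 85.2), and it was smaller in the Gfra3 class (64.6% against 73.7%, with overlapping intervals).

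More channel genes passed 2-fold between neuron classes than between segments as a whole. Of 7752 genes whose mean reached 10 TPM in a segment, 2.58% were at least 2-fold higher in LS and 3.35% at least 2-fold lower, and of the 6 channel genes tested in this way none was. At these backgrounds 0 of 6 is no result about the channel genes. Kcnk3 came closest, 1.90-fold higher in LS on 5 of 5 plates. As differences of mean log2(TPM + 1), Kcnk2 (1.37) and Kcnk3 (1.72) were past 2-fold. Kcnk13 and Kcnk18 were 2.53-fold and 2.69-fold lower in LS, each on 5 of 5 plates. Their means were under 10 TPM in both segments, so they were not tested. The median log2 ratio of LS to TL was -0.04 for the 6 channel genes tested and 0.04 for all genes tested. Between classes within TL, 2 of 8 tested channel genes were at least 2-fold higher in the Gfra3 class (background 6.67% of 7867 genes) and 3 were lower (background 7.46%). Within LS, 3 of 6 were higher (background 4.4% of 7908 genes) and 2 lower (background 5.91%). Each gene called within TL, and Kcnk1, Kcnk10 and Kcnk12 within LS, reached a mean of 10 TPM only in the class where it was higher. The same rule of testing held for the background genes. The median log2 ratio of Gfra3 to Piezo2 class was 0.01 for the channel genes and -0.04 for all genes in TL, and 1.32 and -0.02 in LS.

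**Figure D1:**
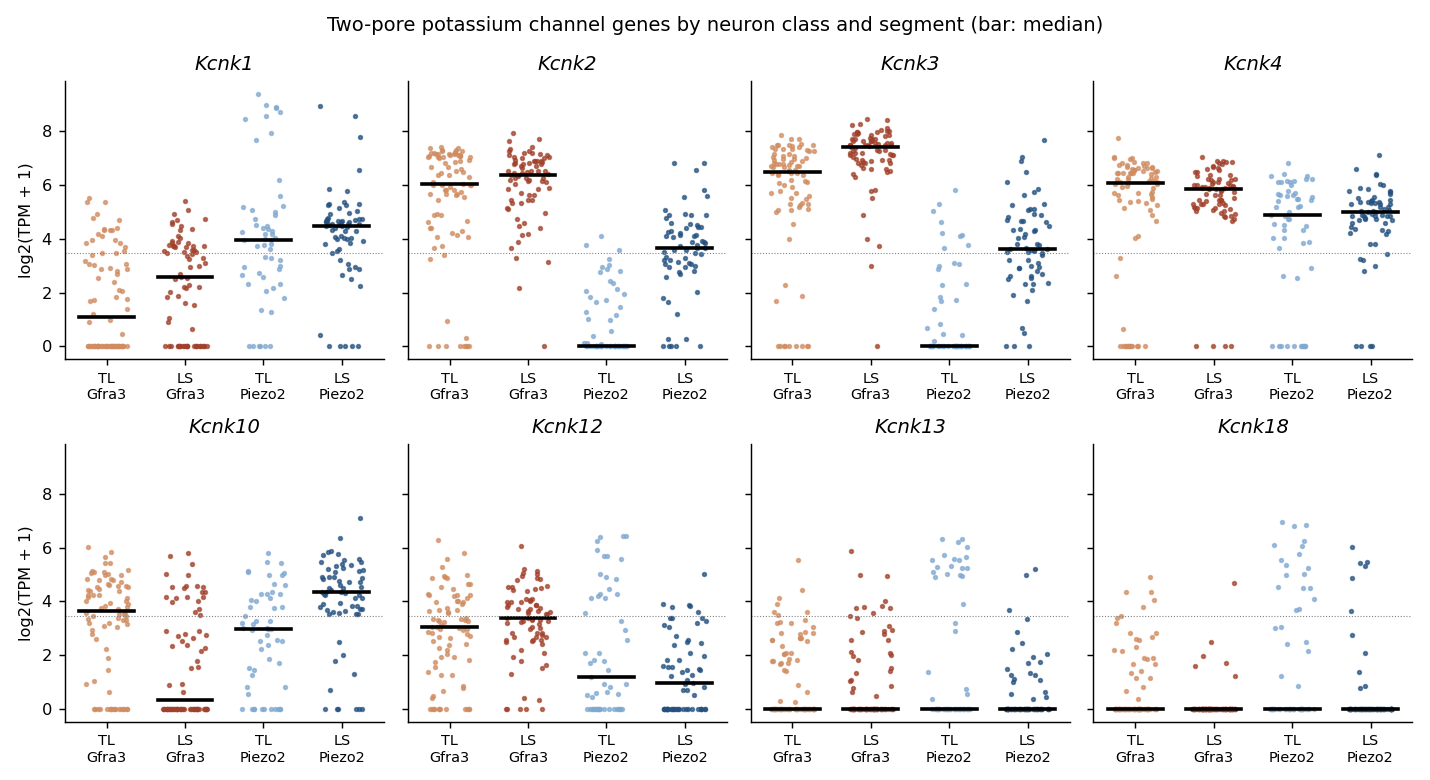
Level of 8 channel genes in each neuron of the Gfra3 and Piezo2 classes, by segment, as log2(TPM + 1) on the vertical axis; black bars are medians and the dotted line marks 10 TPM. Kcnk2 and Kcnk3 sit high in the Gfra3 class of both segments, near 0 in the TL Piezo2 class, and at medians of 11.6 and 11.2 TPM in the LS Piezo2 class.

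Kcnk2 encodes TREK-1, a channel opened by stretch, heat and polyunsaturated lipids. In the Gfra3 class its level ran from 0 to 170 TPM with a median of 64.1 in TL, and from 0 to 239 TPM with a median of 82.3 in LS. In the Piezo2 class it ran from 0 to 16.1 TPM with a median of 0 in TL, and from 0 to 112 TPM with a median of 11.6 in LS. Kcnk2 was therefore high in the Gfra3 class of both segments, and the ranges of all 4 groups overlapped. Mean levels were 37.1-fold higher in the Gfra3 class than in the Piezo2 class within TL (75.9 against 2.05 TPM) and 4.70-fold higher within LS (84.6 against 18.0 TPM), and the direction held in each of plates 2 to 6.

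Some summed markers of other cell types moved with this split of classes. Summed fibroblast markers had medians of 42.6 TPM in the Gfra3 class and 2.02 TPM in the Piezo2 class of TL, and of 193 and 0.993 TPM in LS, with Col1a1, Lum and Pdgfra at a median of 0 in all 4 groups. In the LS Gfra3 class Dcn was the only fibroblast marker with a median above 0. Summed macrophage markers had medians of 44.5 and 3.21 TPM in TL and of 71.8 and 24.5 TPM in LS, with C1qa, C1qc, Cx3cr1, Aif1, Tyrobp and Lyz2 at a median of 0 in all 4 groups. C1qb was the only macrophage marker with a median above 0 in the Gfra3 class of both segments. The glial sum had medians of 2458 and 2413 TPM in TL and of 180 and 2075 TPM in LS. Among neurons below the overall median of the glial sum, the log2 ratio of the Gfra3 over the Piezo2 class for Kcnk2 was 6.57 in TL and 2.08 in LS, against 5.21 and 2.23 in all neurons of the classes. The part of fibroblast and macrophage transcripts in the class differences was not tested.

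Kcnk3 encodes TASK-1, which closes when the outside of the cell turns acid. In the Gfra3 class its level ran from 0 to 232 TPM with a median of 88.3 in TL and from 0 to 347 TPM with a median of 167 in LS. In the Piezo2 class the median was 0 in TL, with a highest value of 55.0 TPM, and 11.2 in LS, with a highest value of 204 TPM. Kcnk3 thus followed the same order of groups as Kcnk2. Mean levels were 18.0-fold higher in the Gfra3 class within TL and 6.99-fold higher within LS, again in each of plates 2 to 6. The related Kcnk9, which encodes TASK-3, was above 0 in 1 neuron only, at 2.70 TPM. Of 325 neurons 0 reached 10 TPM, which an exact interval extends to at most 1.13% of neurons.

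Within the Gfra3 class Kcnk3 had a mean of 163 TPM in LS and 88.8 TPM in TL, a ratio of 1.83 that stayed under the 2-fold threshold but pointed to LS on all of plates 2 to 6. As a difference of mean log2(TPM + 1) in this class, Kcnk3 was at 1.44 and past the threshold. Kcnk2 there differed little between segments (ratio 1.11, higher in LS in 3 of 5 plates). Kcnk3 was the most abundant of the 10 genes in 61 of 76 LS neurons of this class (80.3%, 69.5 to 88.5) but in 35 of 82 TL neurons (42.7%, 31.8 to 54.1), while Kcnk2 led in 27 TL neurons (32.9%, 22.9 to 44.2) and 8 LS neurons (10.5%, 4.66 to 19.7). Glial transcripts moved with this comparison, since the summed glial markers had a median of 2458 TPM in TL (77.8 to 92928) and 180 TPM in LS (6.67 to 54831) neurons of the Gfra3 class. Among neurons below the median of the glial sum the log2 ratio of Kcnk3 was 0.65, against 0.87 in all neurons of the class.

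More channel genes passed 2-fold between segments in the Piezo2 class than in the Gfra3 class. Of 8 channel genes tested, 3 were at least 2-fold higher in LS (background 5.29% of 7883 genes) and 4 were lower (background 5.24%), and the median log2 ratio was -0.55 against 0.03 for all genes tested. Kcnk2, Kcnk3, Kcnk12, Kcnk13 and Kcnk18 reached a mean of 10 TPM only in the segment where they were higher, so the median rests partly on genes admitted in that way. With a minimum of 20 TPM, Kcnk2, Kcnk12, Kcnk13 and Kcnk18 were lost and 3 genes were called. In the Gfra3 class the same comparison gave 0 of 5 higher (background 2.34% of 7676 genes) and 1 lower (background 3.24%), with medians of 0.14 and 0.05. Whether the segmental difference itself differed between the classes was not tested. By marker genes that the study had picked, the Piezo2 class also differed in make-up between segments. In TL, 27 of its neurons had Fam19a1 at 10 TPM or more, 12 had Mrgprd, 10 had Cbln2 and 0 had Hpse. In LS the counts were 4, 1, 3 and 42. Apart from leaving out Cbln2 or Mrgprd neurons, the part of this make-up in the segmental differences of the class was not tested.

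Kcnk2 was at 10 TPM or more in 38 of 65 LS neurons of the Piezo2 class (58.5%, 45.6 to 70.6) and in 3 of 55 TL neurons (5.45%, 1.14 to 15.1), and its mean was 8.79-fold higher in LS. Plate means of Kcnk2 lay between 13.7 and 20.1 TPM in LS and between 0.847 and 4.78 TPM in TL, so the plates did not overlap. Kcnk3 was at 10 TPM or more in 40 of 65 LS neurons (61.5%, 48.6 to 73.4) and 9 of 55 TL neurons (16.4%, 7.77 to 28.8), and its mean was 4.73-fold higher in LS. Plate means of Kcnk3 lay between 15.9 and 49.2 TPM in LS and between 1.87 and 8.97 TPM in TL. With each neuron thinned to 400000 reads the shares for Kcnk2 were 56.9% in LS and 1.82% in TL, and those for Kcnk3 were 55.4% and 16.4%. The glial sum had medians of 2413 TPM in TL and 2075 TPM in LS neurons of this class, and among neurons below the overall median of that sum the log2 ratios were 4.35 for Kcnk2 and 2.43 for Kcnk3.

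**Figure D2:**
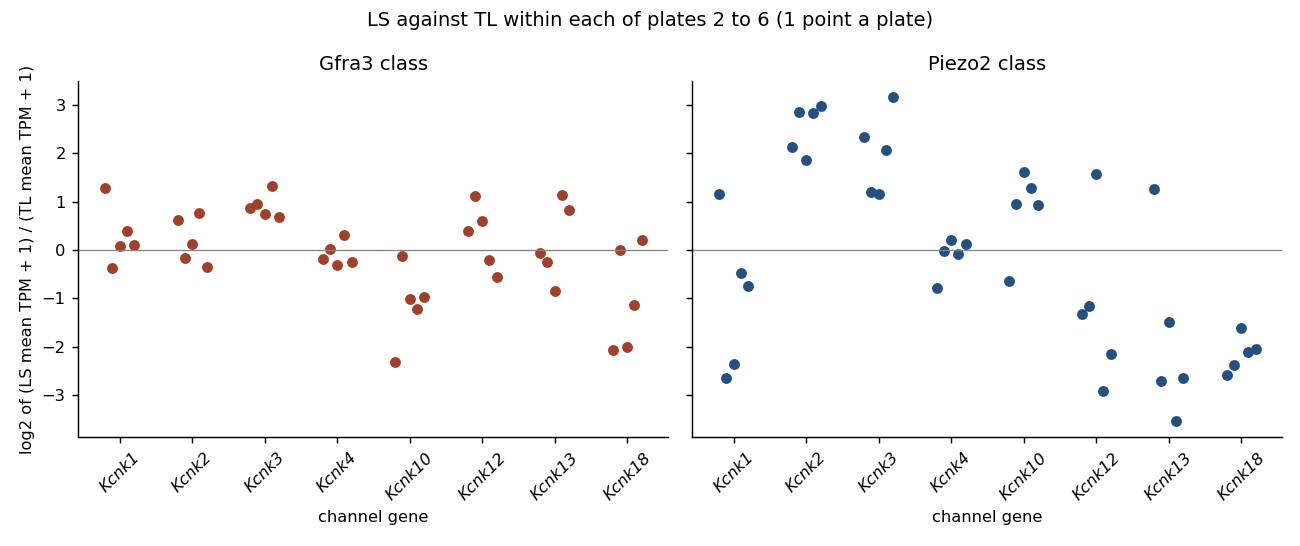
Log2 ratio of mean TPM + 1 in LS to that in TL for 8 channel genes, in the Gfra3 class (left) and the Piezo2 class (right); each point is 1 of plates 2 to 6 and the line marks no difference. Kcnk2 and Kcnk3 lie between 1.15 and 3.16 on every plate in the Piezo2 class, and Kcnk18 lies between -2.59 and -1.61.

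Kcnk2 and Kcnk3 occurred largely in the same neurons. Of 201 neurons with Kcnk2 at 10 TPM or more, 179 (89.1%) also had Kcnk3, which made up 83.3% of the 215 neurons with Kcnk3. Across all 325 neurons the 2 genes had a Spearman's rho of 0.81 (0.81 within TL and 0.76 within LS), and each was the other's most similar gene among 11885 genes that reached 10 TPM in at least 5% of neurons. Next to it stood Trpv1, the capsaicin receptor, with a rho of 0.78 to Kcnk2 and 0.80 to Kcnk3, then Rxrg, a retinoid X receptor, with 0.78 to Kcnk2, and Gal, the galanin precursor, with 0.79 to Kcnk3. That order did not hold within segments. Kcnk2 had a higher rho with Trpv1 (0.83 in TL and 0.79 in LS) than with Kcnk3. Within LS, Kcnk3 had a higher rho with Trpv1 (0.81) and Gal (0.78) than with Kcnk2. These are descriptions across neurons that share libraries, plates and classes. Rank correlations of Kcnk2 and Kcnk3 with the reads of a neuron were 0.06 and 0.05.

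**Figure D3:**
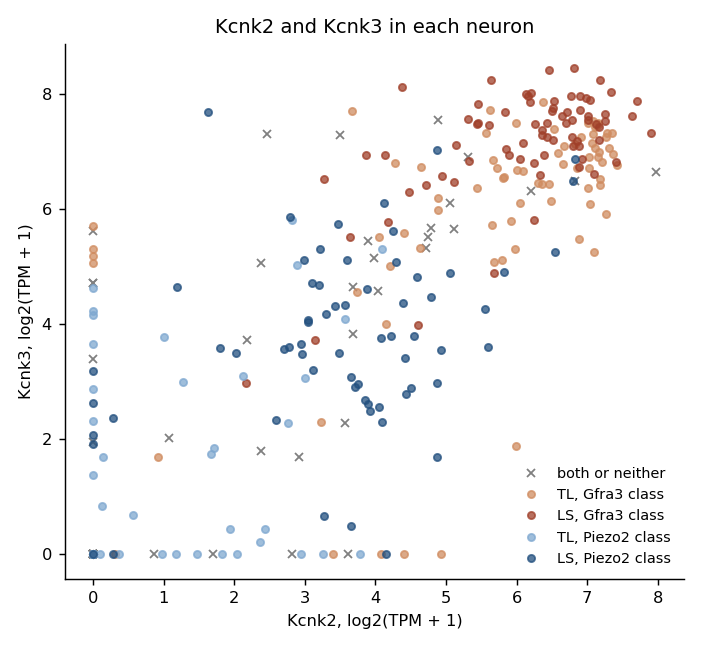
Kcnk2 (horizontal axis) and Kcnk3 (vertical axis) in each of 325 neurons, both as log2(TPM + 1), coloured by class and segment. Neurons of the Gfra3 class fill the upper right, those of the TL Piezo2 class the lower left, and those of the LS Piezo2 class lie between them.

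Of the other stretch-gated members, Kcnk4, which encodes TRAAK, was the most widespread. It was at 10 TPM or more in 66 of 82 TL and 72 of 76 LS neurons of the Gfra3 class and in 41 of 55 TL and 56 of 65 LS neurons of the Piezo2 class. Its range was 0 to 216 TPM in TL (median 48.8) and 0 to 135 TPM in LS (median 39.7). Kcnk4 was close in level between segments (ratio 0.931) and 1.84-fold and 1.69-fold higher in the Gfra3 class within TL and LS, under the 2-fold threshold but with 1 direction on all of plates 2 to 6. Genes with a pattern like it included Cdhr1, a cadherin-related protein (rho 0.65), and Oprm1, the mu opioid receptor (0.63). Its exons overlap those of Catsperz on the same strand in GENCODE M21, so reads in the shared stretch cannot be told apart.

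Kcnk10 encodes TREK-2, the closest relative of TREK-1. Taken over all neurons it did not separate the segments (means of 14.6 TPM in LS and 14.5 TPM in TL), yet within classes it lay on opposite sides. In the Piezo2 class its level ran from 0 to 136 TPM with a median of 19.4 in LS and from 0 to 54.7 TPM with a median of 6.90 in TL. In the Gfra3 class it ran from 0 to 54.2 TPM with a median of 0.279 in LS and from 0 to 63.8 TPM with a median of 11.6 in TL. Neurons at 10 TPM or more were 54 of 65 (83.1%, 71.7 to 91.2) in the LS Piezo2 class, 45 of 82 (54.9%, 43.5 to 65.9) in the TL Gfra3 class, 20 of 55 (36.4%, 23.8 to 50.4) in the TL Piezo2 class and 21 of 76 (27.6%, 18.0 to 39.1) in the LS Gfra3 class. Mean levels in the Piezo2 class were 2.14-fold higher in LS (4 of 5 plates), and those in the Gfra3 class were 2.06-fold lower in LS (5 of 5 plates). Both ratios lay close to the threshold. The first fell below 2-fold without plate 4 and the second without plate 2 or plate 5, with log2 ratios of 0.81, -0.92 and -0.91. The first was also under 2-fold with the mean of plate means (0.86), a class threshold of 20 TPM (0.97), reads thinned to 400000 (0.95) and without Cbln2 (0.95) or Mrgprd neurons (0.85). The second was also under it with the mean of plate means (-0.97) and below the median glial sum (-0.90).

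In neurons with Hpse, which encodes heparanase and reached 10 TPM in 44 LS neurons and no TL neuron, Kcnk10 had a median of 24.2 TPM (0 to 136) and was at 10 TPM or more in 39 of 44 (88.6%, 75.4 to 96.2). The other 114 LS neurons had a median of 2.21 TPM. LS neurons with Ntm, a cell adhesion molecule, had a median of 0 and only 8 of 48 reached 10 TPM. Genes most like Kcnk10 across neurons were Ptgir, the prostacyclin receptor (rho 0.69), Vwa7 (0.63) and Ly75 (0.59). Hpse and Ntm, like Mrgprd, Cbln2, Fam19a1, Smr2 and Trpa1 below, had been picked by the study as markers on these same neurons, so levels by these genes are not independent of its classes.

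**Figure D4:**
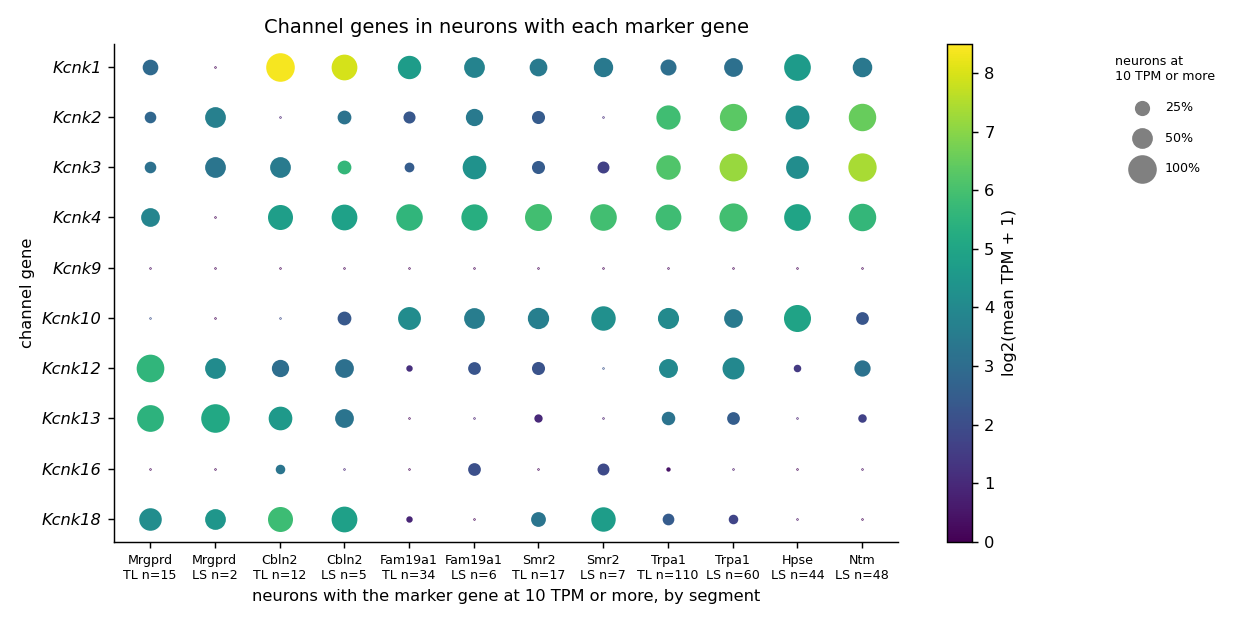
The 10 channel genes (vertical axis) in neurons with each of 7 marker genes at 10 TPM or more, by segment (horizontal axis, n neurons below each name). Colour is log2(mean TPM + 1) and dot area the share of those neurons at 10 TPM or more, with Kcnk1 brightest in Cbln2 neurons and Kcnk12 and Kcnk13 in TL Mrgprd neurons.

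Kcnk1 encodes TWIK-1, a weakly conducting channel that can pass sodium as well as potassium. It was high in a small set of neurons. In the 12 TL neurons with Cbln2, a synapse organiser, Kcnk1 ran from 17.7 to 669 TPM with a median of 363, and in the 5 LS neurons with Cbln2 from 1.06 to 493 TPM with a median of 220. Neurons without Cbln2 had a median of 3.96 TPM in TL (n = 155) and 10.1 TPM in LS (n = 153). In the Piezo2 class its mean exceeded that of the Gfra3 class 12.2-fold within TL and 4.60-fold within LS, in each of plates 2 to 6. With the Cbln2 neurons left out, the log2 ratio of the Gfra3 over the Piezo2 class was -1.07 in TL and -1.36 in LS.

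Segmental differences of Kcnk1 depended on these neurons. Its mean in the Piezo2 class was 2.17-fold lower in LS (36.5 against 79.0 TPM), whereas its median was higher (21.3 against 14.5 TPM), and with the Cbln2 neurons left out the log2 ratio of means was 0.59 in place of -1.12. It was also under 2-fold without plate 3 (-0.84) or plate 4 (-0.83). By share, Kcnk1 was at 10 TPM or more in 82 of 158 LS neurons (51.9%, 43.8 to 59.9) and 62 of 167 TL neurons (37.1%, 29.8 to 44.9). Genes most like it were Slitrk3, a synaptic adhesion molecule (rho 0.56), Mdh1, the cytosolic malate dehydrogenase (0.56), and Ust, a uronyl sulfotransferase (0.54).

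Kcnk12 and Kcnk13 encode the THIK channels, of which THIK-1 (Kcnk13) is closed by halothane and THIK-2 (Kcnk12) is largely silent when expressed alone. Both were highest in neurons with Mrgprd, a receptor of non-peptidergic nociceptors. In the 15 TL Mrgprd neurons Kcnk12 ran from 0 to 85.0 TPM with a median of 46.5, and 14 reached 10 TPM. Kcnk13 there ran from 0 to 79.4 TPM with a median of 37.3, and 13 reached 10 TPM. The other 152 TL neurons had medians of 3.05 TPM for Kcnk12 and 0 for Kcnk13. Only 2 LS neurons had Mrgprd, with Kcnk13 at 35.5 and 30.9 TPM and Kcnk12 at 31.6 and 0 TPM.

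Outside the Mrgprd neurons the THIK genes parted. Kcnk13 was at 10 TPM or more in 8 of 12 TL neurons with Cbln2 (66.7%, 34.9 to 90.1) and in none of 34 TL neurons with Fam19a1, which allows a share of up to 10.3% by the exact interval. Kcnk12 had broad low levels in the Gfra3 class, with medians of 7.21 TPM in TL and 9.33 TPM in LS. Within LS it was 3.70-fold higher in the Gfra3 class than in the Piezo2 class (12.1 against 3.28 TPM, 5 of 5 plates). Within TL its ratio of 0.774 did not pass the threshold. Kcnk13 was lower in the Gfra3 than in the Piezo2 class within TL, at a log2 ratio of -2.30. That call was lost as a difference of mean log2(TPM + 1), at -0.82. It was also lost without the Mrgprd neurons, at -1.08 with means under 10 TPM. LS neurons of the Piezo2 class were 4.34-fold lower than TL for Kcnk12 and 8.29-fold lower for Kcnk13, each in 4 of 5 plates. As a difference of mean log2(TPM + 1) the value for Kcnk12 was -0.83, under the threshold. With reads per 1000000 not divided by length, neither Kcnk12 difference reached the minimum mean of 10, while the log2 ratios were 1.91 between classes and -1.98 between segments. Without the Mrgprd neurons neither THIK gene was called between segments, with log2 ratios of -0.36 for Kcnk12 and -2.29 for Kcnk13, whose mean was then under 10 TPM in both segments, and within TL Kcnk12 was then higher in the Gfra3 class at a log2 ratio of 1.59.

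Genes most like Kcnk12 were Myt1, a zinc finger transcription factor (rho 0.68), Gnal, the olfactory-type G protein alpha subunit (0.67), and Rgmb, a repulsive guidance molecule (0.63). For Kcnk13 they were Acpp, prostatic acid phosphatase, which marks non-peptidergic nociceptors (0.49), Dpp10 (0.47) and Pacsin1 (0.45). The likeness of Kcnk13 and Acpp was 0.69 within TL and 0.20 within LS, where few neurons had Mrgprd.

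Kcnk18 encodes TRESK, which the calcium-dependent phosphatase calcineurin activates. It was above 0 in 84 of 325 neurons and at 10 TPM or more in 26 of 167 TL (15.6%, 10.4 to 22.0) and 13 of 158 LS neurons (8.23%, 4.45 to 13.7). Levels were highest in Cbln2 neurons, from 0 to 123 TPM with a median of 62.2 in TL and from 0 to 64.3 TPM with a median of 20.1 in LS. In TL Mrgprd neurons the median was 12.1 TPM and 9 of 15 reached 10 TPM. Smr2 neurons also held it, 4 of 17 in TL and 5 of 7 in LS (71.4%, 29.0 to 96.3). In contrast, the highest value was 5.74 TPM in 44 Hpse neurons and 0.712 TPM in 48 Ntm neurons.

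Within TL Kcnk18 was 7.61-fold higher in the Piezo2 than in the Gfra3 class (16.9 against 2.22 TPM, 5 of 5 plates). In the Piezo2 class it was 4.57-fold lower in LS than in TL, in each of plates 2 to 6. Neither call held without the Cbln2 neurons, where the mean was under 10 TPM in each group compared and the log2 ratios were -1.71 for the Gfra3 over the Piezo2 class in TL and -1.84 for LS over TL. Kcnk13 and Kcnk18 shared neurons in part. Of 45 neurons with Kcnk13 at 10 TPM or more 22 had Kcnk18 (48.9%), which were 56.4% of the 39 neurons with Kcnk18. Genes most like Kcnk18 were Rcan2, a regulator of calcineurin (rho 0.54), Trarg1 (0.54) and Acpp (0.51). Within LS the values were lower, at 0.43, 0.39 and 0.33, against 0.54, 0.52 and 0.59 within TL.

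Kcnk16, which encodes the alkali-activated TALK-1 of pancreatic islets, was above 0 in 24 neurons and reached 10 TPM in 3 TL and 1 LS neurons. All the TL neurons among them were on plate 2 and the LS neuron was on plate 6. Its highest value, 106 TPM, was in a TL neuron with Cbln2. Its reads summed to 303 over all neurons, with an exact Poisson interval of 270 to 339.

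The most abundant channel gene of a neuron changed with class. In the Gfra3 class Kcnk3 made up 33.4% of the summed mean level of the 10 genes in TL and 48.3% in LS. In the TL Piezo2 class Kcnk1 made up the largest part (43.9%), although Kcnk4 led in more neurons (25 of 55) than Kcnk1 (12 of 55). In the LS Piezo2 class no gene led in more than 21 of 65 neurons, with Kcnk4 first in 21, Kcnk10 in 17, and Kcnk1 and Kcnk3 in 10 each. Summed levels of the 10 genes had medians of 291 and 352 TPM in the Gfra3 class of TL and LS, and of 122 TPM in the Piezo2 class of both.

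Upstream sequences are given for 5 members that separated the neuron groups, to set the patterns beside the DNA in front of each gene. They are the 250 bases before the RefSeq start nearest to the gene's GENCODE start, on GRCm38.p6, written 5′ to 3′ on the gene's strand. Capitals mark matches on either strand to 4 short motifs. These were TATAAA, known as the TATA box, then GGGCGG, the GC box bound by Sp factors, the letters CCAAT of the CCAAT box, and TGTGGT, the core of sites for RUNX factors. Kcnk2, high in the Gfra3 class, lies at chr1:189402274-189402523 (minus strand) and is 1 of 4 listed starts. Kcnk1, highest in Cbln2 neurons, is at chr8:125994852-125995101 (plus). Kcnk10, highest in Hpse neurons, is at chr12:98578214-98578463 (minus). Kcnk12 is at chr17:87797995-87798244 (minus) and Kcnk13 at chr12:99964249-99964498 (plus), both highest in TL Mrgprd neurons.
Kcnk2: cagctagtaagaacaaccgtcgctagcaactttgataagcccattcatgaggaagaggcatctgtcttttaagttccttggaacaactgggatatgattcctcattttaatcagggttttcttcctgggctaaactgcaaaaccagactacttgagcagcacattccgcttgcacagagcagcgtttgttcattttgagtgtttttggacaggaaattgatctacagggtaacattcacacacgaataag
Kcnk1: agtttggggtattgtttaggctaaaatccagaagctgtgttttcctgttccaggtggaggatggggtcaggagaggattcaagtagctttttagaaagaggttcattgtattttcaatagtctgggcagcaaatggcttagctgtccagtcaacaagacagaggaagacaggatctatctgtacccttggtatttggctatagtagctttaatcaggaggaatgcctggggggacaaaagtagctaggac
Kcnk10: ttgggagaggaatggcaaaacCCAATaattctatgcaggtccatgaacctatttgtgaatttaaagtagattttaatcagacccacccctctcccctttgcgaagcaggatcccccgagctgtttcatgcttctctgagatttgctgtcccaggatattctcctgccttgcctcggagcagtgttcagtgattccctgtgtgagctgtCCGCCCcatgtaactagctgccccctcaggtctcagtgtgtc
Kcnk12: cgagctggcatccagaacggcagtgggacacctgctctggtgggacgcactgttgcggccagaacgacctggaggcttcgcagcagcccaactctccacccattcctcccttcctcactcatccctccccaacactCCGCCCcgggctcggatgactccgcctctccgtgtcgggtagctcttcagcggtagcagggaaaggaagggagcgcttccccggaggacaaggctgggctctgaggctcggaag
Kcnk13: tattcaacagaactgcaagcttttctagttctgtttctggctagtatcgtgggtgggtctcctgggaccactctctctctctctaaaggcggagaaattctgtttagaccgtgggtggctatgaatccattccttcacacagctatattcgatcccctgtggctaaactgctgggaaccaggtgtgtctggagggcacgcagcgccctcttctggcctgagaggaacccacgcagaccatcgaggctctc

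Entries were found for 8 of the 10 genes. GGGCGG was present in the windows of Kcnk4, Kcnk10 and Kcnk12, as in 32.7% of 32851 promoters, and CCAAT in that of Kcnk10, as in 33.8%. TATAAA was present in none of the 8 (12.4% of all) and TGTGGT in that of Kcnk16 only (14.0% of all). GC content was 42.4% for Kcnk2 and 44.4% for Kcnk1, and 64.8% for Kcnk12, against a median of 52.4% over all promoters. Which start each neuron used was not measured.

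Genes for partners of these channels made up a second list, which held the calcineurin subunits Ppp3ca, Ppp3cb and Ppp3r1, the 14-3-3 proteins Ywhah and Ywhab, the anchoring protein Akap5, S100a10 and the coat protein Copb1, which bind or regulate members of the family. Of 8 genes 7 were tested in each comparison, and the only one past 2-fold was Ppp3ca, which was 2.41-fold lower in LS than in TL in the Piezo2 class (38.3 against 92.3 TPM, 5 of 5 plates). At a background of 5.24% of genes lower there, 1 of 7 is no result about the partners. Kcnk18 was lower in LS in the same comparison, and a link between Ppp3ca and Kcnk18 was not tested. The sodium leak channel, which opposes the potassium leak, consists of Nalcn with Unc79, Unc80 and Fam155a. Of these 4 genes 2 or 3 were tested in each comparison. Nalcn was at means of 11.4 TPM in LS and 9.61 TPM in TL, and within the Piezo2 class Unc80 was 2.64-fold higher in LS (12.3 against 4.66 TPM, 5 of 5 plates), and within LS it was 2.09-fold higher in the Piezo2 than in the Gfra3 class (backgrounds of 5.29% and 5.91% of genes).

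Some reads could not be assigned with certainty. Exons of Kcnk1, Kcnk2 and Kcnk3 overlap genes on the opposite strand (Gm45875, A430027H14Rik and Gm9899), and the library protocol did not keep strand.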

How the data were processed

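Single colonic sensory neurons were sequenced with a Smart-seq2 protocol. The submitters' processing notes name bcl2fastq 2.15.0.4, STAR 2.4.1 and featureCounts 1.4.4 with build GRCm38.p3. The deposited table held log2(x + 1) values, where x was in proportion to reads over gene length. It held 325 of the 399 neurons labelled, and none of the 13 labelled bath controls was analysed. Here x was rescaled to 1000000 per neuron, giving TPM. Reads were recovered as whole numbers, with GENCODE M21 exonic lengths for 26057 genes and lengths found from the values for 8712. The length of Kcnk9, above 0 in 1 neuron, could not be fixed in this way.

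A gene was tested in a comparison if its mean reached 10 TPM in 1 group, and was called at a 2-fold ratio of means. No p-value was computed, because each segment was 1 sample. Library plates 2 to 6, which held both segments, served as strata. The members and lists were chosen with earlier results of these data known. Genes named were the 10 members, 4 other family genes, 8 partners, 4 sodium leak genes, 7 study markers and, for members at 10 TPM in at least 10% of neurons, the 3 genes with the highest Spearman's rho, of which 1 is not reported here. Symbols came from GENCODE M21 and promoters from RefSeq. The fold call and the recovery of reads were tested on simulated data. Python 3.11 scripts with numpy, pandas, scipy and matplotlib were used. Alternatives changed the scale, the mean, the filters, the plates and the thresholds. No doublet caller was run, as neurons were picked by hand.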

Additional observations from a re-analysis of the deposited data

How the results depend on the processing

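No paired analysis was possible because the numbers of the neurons only name them, and ratios within plates 2 to 6 stand in the report instead. Across the alternatives that could move them, 655 of 681 log2 ratios of channel genes moved by less than 1 SD of the plate ratios. Another 24 moved by more, and 2 that had passed 2-fold reversed. Both were Kcnk1 between LS and TL in the Piezo2 class. They stood at 0.051 as a difference of mean log2(TPM + 1) and at 0.59 without Cbln2 neurons. Changes of sign in ratios under 2-fold were not counted as reversals. Among them, Kcnk1 between LS and TL over all neurons went from -0.68 to 0.52 without Cbln2 neurons. Kcnk12 between classes within TL went from -0.37 to 1.59 without Mrgprd neurons. The SD came from 5 plates and was 1.32 for Kcnk1 over all neurons. A ratio could thus change sign and count as unmoved. Leaving out Cbln2 or Mrgprd neurons or the neuron with the highest endothelial sum, and keeping neurons below the median glial sum were alternatives added after the data had been seen. Counts of channel genes past 2-fold moved by over 1.5 times as follows, and the cause was not tested. Between LS and TL over all neurons the count of 0 became 2 on mean log2 values, 1 without plate 4 or plate 6, 2 with a minimum of 5 TPM, 4 with no minimum, 2 at 1.5-fold and 3 below the median glial sum. In the Gfra3 class the count of 1, which was Kcnk10, became 2 on mean log2 values and at 1.5-fold, 3 with no minimum, and 0 with the mean of plate means, without plate 2 or plate 5, with a minimum of 20 TPM, at 3-fold and below the median glial sum. In the Piezo2 class the count of 7 became 3 with a minimum of 20 TPM and 4 without Cbln2 neurons (Kcnk1, Kcnk10 and Kcnk18 lost) or without Mrgprd neurons (Kcnk10, Kcnk12 and Kcnk13 lost). Between classes within TL the count of 5 became 3 with a minimum of 20 TPM. Under the other alternatives it was 4 to 7, the same comparison within LS gave 4 to 7 in place of 5, and the Piezo2 class gave 5 to 9 in place of 7. Kcnk4 and Kcnk10 were gained within TL with values as deposited and below the median glial sum. The median of 3 channel genes per TL neuron became 5 when any value above 0 was counted. Shares left their counting interval in 51 of 340 cases, 36 of them with another threshold of level. A neuron with few reads can miss a gene near 10 TPM.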
